A study of Rattus norvegicus with 63 samples.

Results

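The glucose and fructose transporters described here are Slc2a1, Slc2a3 and Slc2a5, measured by 5 of the 1263 probe sets of a rat neurobiology array beside its controls, and making up 3 of its 720 named genes. A probe set was taken where its only gene symbol in the platform annotation was 1 of these 3. Slc2a1 had 1 probe set (S68135_s_at), Slc2a3 had 2 (D13962_g_at and D13962_at) and Slc2a5 had 2 (D13871_s_at and D28562_s_at).

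RNA came from 6 dissected brain regions of rats that self-administered cocaine into a vein at 0.25 mg per injection for 0, 1 or 6 h a day, with 8 rats in each access group by the design. The rats with 0 h had never received cocaine, and the groups are called no access (0 h), short access (1 h) and long access (6 h). Each access group had 4 arrays from the lateral hypothalamus, amygdala and nucleus accumbens and 3 from the septum, medial prefrontal cortex and ventral tegmental area, 63 in all. Strain, age and any pooling of rats on an array are not given in the sources used here, so a p-value measures the spread between these arrays, which may be technical. Values are log2 of the array signal after each array was scaled to the same trimmed mean, with a floor at log2 5. An adjusted p is from limma with Benjamini-Hochberg adjustment over all probe sets tested in a contrast, and a call is an adjusted p under 0.05.

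Neurons and glia draw most of their energy from blood glucose, which crosses the blood-brain barrier and enters cells through facilitative carriers of the Slc2a family. Slc2a1 encodes GLUT1, the carrier of brain capillary endothelium and, in a less glycosylated form, of astrocytes. Slc2a3 encodes GLUT3, the high-affinity glucose carrier of neurons, and Slc2a5 encodes GLUT5, which carries fructose and in brain is known mainly from microglia. In these bulk samples fewer cells of a type and less RNA per cell cannot be told apart.

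RefSeq promoter sequences of the GRCr8 build were matched for 2 of the 3 genes, and these are the 2 whose signal differed between access groups in the lateral hypothalamus. Both genes lie on the forward strand of chromosome 5, Slc2a1 with its upstream bases at chr5:138002272-138002521 and Slc2a5 at chr5:165865929-165866178. The 250 bases before each start are printed 5′ to 3′, and capitals mark every match to a motif searched on both strands.
Slc2a1: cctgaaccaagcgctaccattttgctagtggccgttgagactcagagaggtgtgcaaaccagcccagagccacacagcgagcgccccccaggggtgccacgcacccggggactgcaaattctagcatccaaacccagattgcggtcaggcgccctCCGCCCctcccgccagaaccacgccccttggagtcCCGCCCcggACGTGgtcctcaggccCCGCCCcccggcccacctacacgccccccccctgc
Slc2a5: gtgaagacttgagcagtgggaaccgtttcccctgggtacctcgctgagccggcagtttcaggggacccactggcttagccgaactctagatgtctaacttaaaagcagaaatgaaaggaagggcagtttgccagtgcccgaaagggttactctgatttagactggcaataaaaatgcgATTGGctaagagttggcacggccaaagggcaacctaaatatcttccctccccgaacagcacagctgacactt
The letters searched were GGGCGG for the GC box, CCAAT for the CCAAT box, TATAAA for the TATA box, ACGTG for the core of the hypoxia response element, and for the E-box CACGTG, inside which the core lies. Slc2a1 held 3 GC boxes on the reverse strand, starting at -95, -60 and -35 from the start, and 1 ACGTG at -51. Slc2a5 held 1 CCAAT on the reverse strand at -72. Neither window held TATAAA or CACGTG. Of 33469 rat promoters of the same length, 30.5% held a GC box, 16.6% ACGTG and 34% CCAAT. GC content was 68.4% for Slc2a1 and 50.8% for Slc2a5, beside a median of 51.2% over all promoters. These matches describe the letters only, and the 2 windows share none of the motifs searched.

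The arrays were first checked as a whole. In each region with a marker list, every marker tested was called above the average of the other 5. These were 4 of 4 genes each for ventral tegmental area and nucleus accumbens, 3 of 3 each for lateral hypothalamus and medial prefrontal cortex, and 2 of 2 for amygdala. Itpka is on the lists of both the medial prefrontal cortex and the amygdala. The lists were chosen with earlier results of these data known, so these calls are no independent check of the dissections. Between 50.1% and 68.5% of 858 probe sets were called in either direction in such comparisons. Of the 5 transporter probe sets, S68135_s_at, D13962_g_at and D13871_s_at passed the filter on low signal (a mean of at least 100) in all 6 regions, D13962_at in 3 and D28562_s_at in 0. Some arrays stood apart from the rest. In the lateral hypothalamus the 4 no access arrays had a mean of 8.13 ± 0.21 (SD, n = 4) over 6 antisense control probe sets, against 6.84 ± 0.17 with short and 6.75 ± 0.15 with long access. All 4 resembled the ventral tegmental area most among the other regions, whereas the 4 short and 4 long access arrays resembled the septum most. In the medial prefrontal cortex the 3 arrays with replicate number 3 differed from the other 6 in 3′ to 5′ actin signal, at 1.35 to 1.93 (log2) against -0.01 to 0.78.

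Slc2a1, the endothelial and astrocytic glucose carrier, was set first by region. Its signal was highest in the ventral tegmental area, at a mean of 11.81 and between 11.52 and 11.95 over 9 arrays. The lateral hypothalamus followed at 11.45 (10.98 to 11.97, 12 arrays), and the septum at 10.81 (10.47 to 10.99, 9 arrays). The amygdala had 10.66 (10.23 to 11.13, 12 arrays), the medial prefrontal cortex 10.42 (10.25 to 10.94, 9 arrays) and the nucleus accumbens 10.37 (10.06 to 10.69, 12 arrays). The lowest array of the ventral tegmental area lay above every array outside the lateral hypothalamus. Against the mean of the other 5 regions, Slc2a1 was higher in the ventral tegmental area by 1.07 ± 0.08 (log2 difference, SE, limma adjusted p = 4.02e-18) and in the lateral hypothalamus by 0.64 ± 0.07 (limma adjusted p = 9.42e-12). It fell below that mean in the nucleus accumbens by 0.66 ± 0.07, in the medial prefrontal cortex by 0.60 ± 0.08 and in the amygdala by 0.31 ± 0.07, all called. The septum differed by -0.14 ± 0.08 and was not called (limma adjusted p = 0.13). Such calls were common, where the share of 858 probe sets called in either direction was 50.1% for the amygdala, 50.9% for the septum, 55.5% for the lateral hypothalamus, 65.9% for the nucleus accumbens, 67.2% for the medial prefrontal cortex and 68.5% for the ventral tegmental area.

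Neighbours in this order differed beyond their spread between ventral tegmental area and lateral hypothalamus (0.36 ± 0.09, limma adjusted p = 0.0011), between lateral hypothalamus and septum (0.65 ± 0.09, limma adjusted p = 5.81e-08) and between amygdala and medial prefrontal cortex (0.24 ± 0.09, limma adjusted p = 0.029). Septum and amygdala did not (limma adjusted p = 0.19), nor did medial prefrontal cortex and nucleus accumbens (limma adjusted p = 0.69). Of all probe sets 45.1%, 49.5% and 48.1% were called in the first 3 pairs, and 52.2% and 61.4% in the last 2. The place of the lateral hypothalamus depended on the access group. With the no access arrays alone its Slc2a1 signal lay -0.00 ± 0.18 from that of the ventral tegmental area, and without the no access arrays of all regions it lay 0.54 ± 0.10 below (-0.54, limma adjusted p = 5.05e-05).

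**Figure D1:**
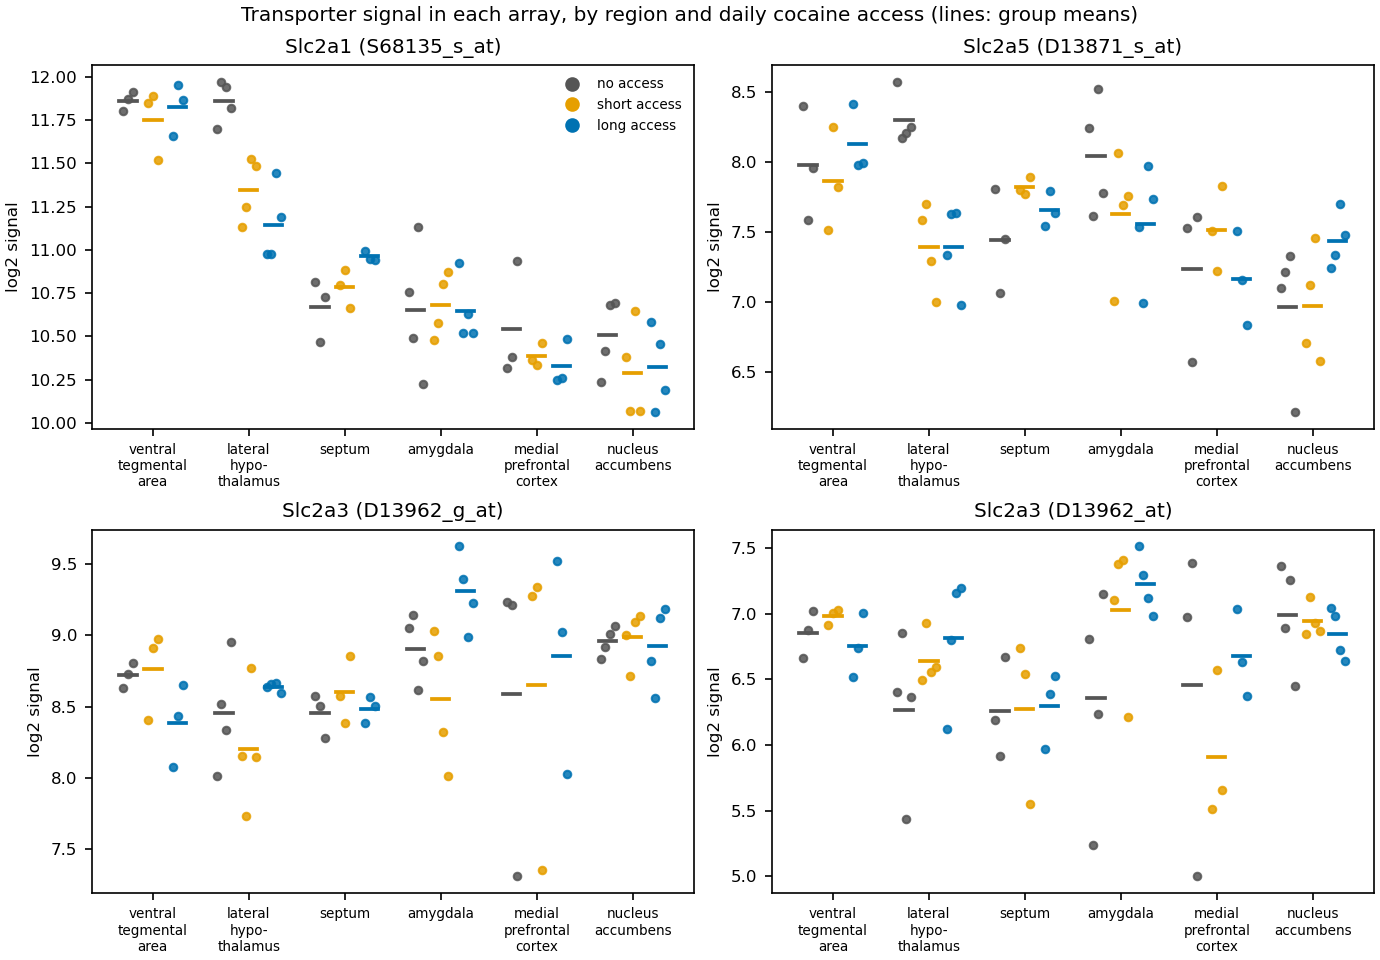
Log2 signal of 4 transporter probe sets in each of 63 arrays (points), by region and by daily cocaine access (grey none, orange short, blue long), with group means as lines; each panel has its own axis. Slc2a1 is high in the ventral tegmental area at every access and in the lateral hypothalamus without cocaine, and the Slc2a3 arrays at 7.31 and 7.35 in the medial prefrontal cortex lie below all others of D13962_g_at.

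In the lateral hypothalamus Slc2a1 was lower in both cocaine groups. Without access its 4 arrays read 11.70, 11.97, 11.94 and 11.82, with a mean of 11.86 ± 0.12 (SD, n = 4). With short access they read 11.13, 11.25, 11.53 and 11.49, a mean of 11.35 ± 0.19 (SD, n = 4). With long access they read 10.98, 10.98, 11.44 and 11.19, a mean of 11.15 ± 0.22 (SD, n = 4). Every no access array lay above every cocaine array, whereas the 2 cocaine groups overlapped. Slc2a1 was 1.64-fold lower with long than with no access (-0.71 ± 0.12, SE, limma adjusted p = 0.00034) and 1.42-fold lower with short than with no access (-0.51 ± 0.12, limma adjusted p = 0.0065). Long and short access differed by -0.20 ± 0.12 and were not called apart (limma adjusted p = 0.30), where 8.91% of probe sets were. The background of such calls in this region was high, with 16.3% of 718 probe sets called lower and 13.4% higher for long against no access, and 12.1% lower and 10.3% higher for short against no access.

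Slc2a5, the fructose carrier, was lower in the same arrays. Its probe set D13871_s_at read 8.57, 8.17, 8.21 and 8.25 without access, a mean of 8.30 ± 0.18 (SD, n = 4). Short access arrays read 7.59, 7.70, 7.30 and 7.00 (7.40 ± 0.32, SD, n = 4), and long access arrays 7.34, 7.63, 7.64 and 6.98 (7.40 ± 0.31, SD, n = 4). Again no cocaine array reached the lowest no access array, and the 2 cocaine groups covered the same range. The fall was 1.87-fold with long access (-0.91 ± 0.19, SE, limma adjusted p = 0.0023) and 1.88-fold with short access (-0.91 ± 0.19, limma adjusted p = 0.0035). Long and short access differed by 0.00 ± 0.19 (limma adjusted p = 0.998). The other Slc2a5 probe set, D28562_s_at, was within 0.31 of the floor on all 12 arrays here and gave no second reading.

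Slc2a3, the neuronal carrier, did not follow. D13962_g_at read 8.01, 8.52, 8.34 and 8.95 without access, 8.16, 7.73, 8.77 and 8.15 with short access and 8.63, 8.66, 8.66 and 8.59 with long access. The 4 long access arrays lay within 0.07 of each other and inside the range of the no access arrays. Differences were 0.18 ± 0.21 for long against no access (limma adjusted p = 0.57), -0.25 ± 0.21 for short against no access (limma adjusted p = 0.42) and 0.43 ± 0.21 for long against short (limma adjusted p = 0.22). D13962_at was under the filter in this region and was not tested.

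**Figure D2:**
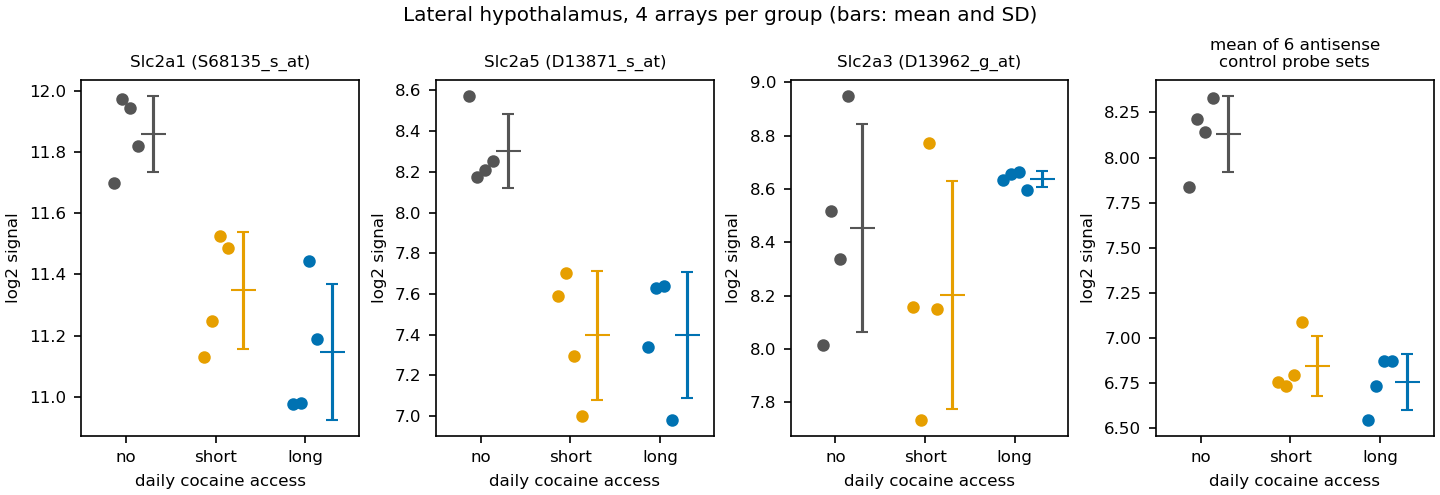
Log2 signal of 3 transporter probe sets and the mean log2 signal of 6 antisense control probe sets in the 12 lateral hypothalamus arrays, by daily cocaine access; points are arrays and bars the mean and SD of 4. The no access arrays stand above all cocaine arrays for Slc2a1, Slc2a5 and the antisense controls, and the groups overlap for Slc2a3.

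The array measures that moved with these 2 falls were the controls. Antisense controls differed by -1.38 between long and no access and by -1.29 between short and no access, and spike-in controls by -0.66 and -0.44 (exact permutation test, two-sided, p = 0.0286 for each, the smallest that 4 against 4 arrays allow, and 0.30 adjusted over 72 comparisons). With spike-in level added to the fit, Slc2a1 differed by -0.83 for long against no access (limma adjusted p = 0.043) and by -0.59 for short (limma adjusted p = 0.057). Slc2a5 then differed by -0.75 (limma adjusted p = 0.26) and by -0.81 (limma adjusted p = 0.0999), so that 3 of the 4 calls were lost at about the same size of difference. In the ventral tegmental area the antisense controls shifted in the other direction, higher by 0.93 with long than with no access. Slc2a1 there differed by -0.04 ± 0.10, and Slc2a5 had group means of 7.98 without and 8.13 with long access. The part of the controls in either transporter there was not tested. Dopaminergic markers of the ventral tegmental area were also read in the lateral hypothalamus arrays. Of their 4 genes 3 were tested: Th rose with long access (0.52 ± 0.15, limma adjusted p = 0.019), Ddc fell with short access (-0.37 ± 0.12, limma adjusted p = 0.036), and Slc6a3 had group means of 7.35, 6.77 and 6.47 with no, short and long access. Slc18a2 was at or near the floor (means of 5.50, 5.13 and 6.01). The summed signal of the 4 lay between 1301 and 1501 without access, between 1102 and 1459 with short and between 1266 and 1592 with long access, so these ranges overlapped. The part of the controls and of these markers in the 2 falls was not tested.

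Markers of the cells that carry these transporters were set beside them. Of 15 microglial and immune genes 5 are on the array and 4 were tested. For long against no access 3 of 4 fell, with a median of -0.67 beside -0.03 over all 718 probe sets: B2m, the light chain of class I molecules, by 0.67, Il18, a cytokine, by 0.59, and complement C4b by 1.01. For short against no access 1 of 4 fell, B2m by 0.30 (-0.30 ± 0.10, limma adjusted p = 0.049), and the median was -0.03 beside -0.07. Summed signal of the 5 genes was 3750 to 4283 without access, 3348 to 3652 with short and 1981 to 2834 with long access, with no overlap between groups. Both Slc2a5 and this sum lay below the no access arrays in each cocaine group, and only the sum was lower again with long access. A sum of signals weighs the brightest genes most, and with short access the median of the genes tested was near that of all probe sets. Itgam, the microglial integrin CD11b, was under the filter, with group means of 6.31, 5.90 and 6.34. Of 14 endothelial and vessel genes the array holds 1, the pericyte receptor Pdgfrb, at 6.82 without, 6.85 with short and 6.75 with long access, so that the endothelium itself was not measured beside Slc2a1. Of 8 astrocyte genes tested for long against no access, 3 fell (Vim by 0.84, Apoe by 0.61, Glul by 0.21) and 1 rose (Kcnj10, 0.91 ± 0.20). For short against no access 2 of 8 fell, Glul by 0.56 and Gja1 by 0.56. The astrocyte sum was 68131 to 76437 without access, 54252 to 66457 with short and 48778 to 60721 with long access, so the cocaine groups lay below the no access arrays. Of 9 neuronal genes, 2 rose (Syn1, Syp) and 2 fell (Nefh, Nefm) with long access, and 2 rose (Syn1, Eno2) with short access. Of 6 oligodendrocyte genes, 2 rose (Sox10, Mag) and 3 fell (Mog, Mbp, Tf) with long access, and 3 rose (Sox10, Mag, Cnp) and 1 fell (Mog) with short access. Beside these counts, 16.3% of all 718 probe sets were called lower and 13.4% higher for long against no access. For short against no access 12.1% were called lower and 10.3% higher. The part of cell makeup in the transporter differences was not tested.

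Few genes that act on glucose after its entry are on the array. Of 31 glucose use genes 3 have probe sets beside the controls and 2 were tested. Eno2, the neuronal enolase of glycolysis, rose with short access by 0.23 ± 0.07 (limma adjusted p = 0.023), and neither was called for long against no access. Hexokinase, which traps glucose in the cell by phosphorylation, is present as a control probe set. Its 3′ set read 9.07 ± 0.03 without, 9.15 ± 0.07 with short and 9.72 ± 0.06 with long access (SD, n = 4 each) in the lateral hypothalamus. The 4 long access arrays lay above the other 8, with a difference from no access of 0.65 (exact permutation test, two-sided, p = 0.0286, the smallest possible, and 0.51 adjusted over 36 comparisons). With short access, where Slc2a1 was also lower, hexokinase differed from no access by 0.08 (exact permutation test, two-sided, p = 0.11, and 0.51 adjusted). The GAPDH 3′ control differed by -0.14 between long and no access (exact permutation test, two-sided, p = 0.14). Of 9 insulin and IGF genes tested, 0 passed with long access and 1 with short access, the kinase subunit Pik3r1, which fell by 1.24. Of 7 ion pump and oxidative energy genes, the sodium pump subunit Atp1b2 rose by 1.39 ± 0.16 with long access while Atp2b2, Atp1b1 and Ckb fell by 0.33, 0.31 and 0.21. With short access Atp1b2 rose by 0.50 and Atp2b2 fell by 0.38. Over all 718 probe sets, 16.3% were called lower and 13.4% higher for long against no access. The shares were 12.1% and 10.3% for short against no access.

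The change in Slc2a1 and Slc2a5 was then compared between the lateral hypothalamus and the mean of the other 5 regions, since a call in 1 region and not in another does not show that they differ. For long against no access the difference between regions was -0.68 ± 0.17 for Slc2a1 (SE, limma adjusted p = 0.0047) and -0.96 ± 0.28 for Slc2a5 (limma adjusted p = 0.017), where 6.76% of 858 probe sets were called lower and 6.06% higher. For short against no access it was -0.93 ± 0.28 for Slc2a5 (limma adjusted p = 0.032, 2.45% called lower and 4.43% higher) and -0.44 ± 0.17 for Slc2a1, which was not called (limma adjusted p = 0.10). The Slc2a5 calls depended on single arrays. Without replicate 1 of the no access arrays the adjusted p was 0.052 for long and 0.088 for short access, and without replicate 4 of the long access arrays it was 0.063. For short access it also passed 0.05 without replicate 4 of the no access arrays (0.065) and without short access replicates 3 (0.066) or 4 (0.10).

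Outside the lateral hypothalamus no transporter was called for access. Of 54 tests of member probe sets in the other 5 regions 0 passed (limma, adjusted), and 3 had an unadjusted p under 0.05. For long against no access the share of all probe sets called there was 0% in the nucleus accumbens and medial prefrontal cortex, 0.137% in the amygdala, 2.31% in the septum and 2.91% in the ventral tegmental area. For short against no access it was 1.9% in the septum and 0.831% in the ventral tegmental area, for long against short 2.04% and 2.63%, and 0% in the other 3 regions. In the septum Slc2a1 read 10.47 to 10.82 without and 10.94 to 10.99 with long access. The difference of 0.29 ± 0.09 was not called (limma adjusted p = 0.12). In the nucleus accumbens Slc2a1 differed by -0.18 ± 0.15 and Slc2a5 by 0.47 ± 0.25 between long and no access (limma adjusted p = 0.59 and 0.39). Slc2a5 in the amygdala lay at 8.04 ± 0.42 without, 7.63 ± 0.45 with short and 7.56 ± 0.42 with long access (SD, n = 4 each), and these groups overlapped (limma adjusted p = 0.89 for long against no access). Averaged over 6 regions, Slc2a1 differed by -0.14 ± 0.07 with long and -0.14 ± 0.07 with short access (limma adjusted p = 0.29 and 0.46), and no other transporter probe set was called, where 1.17% and 0.816% of probe sets were.

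**Figure D3:**
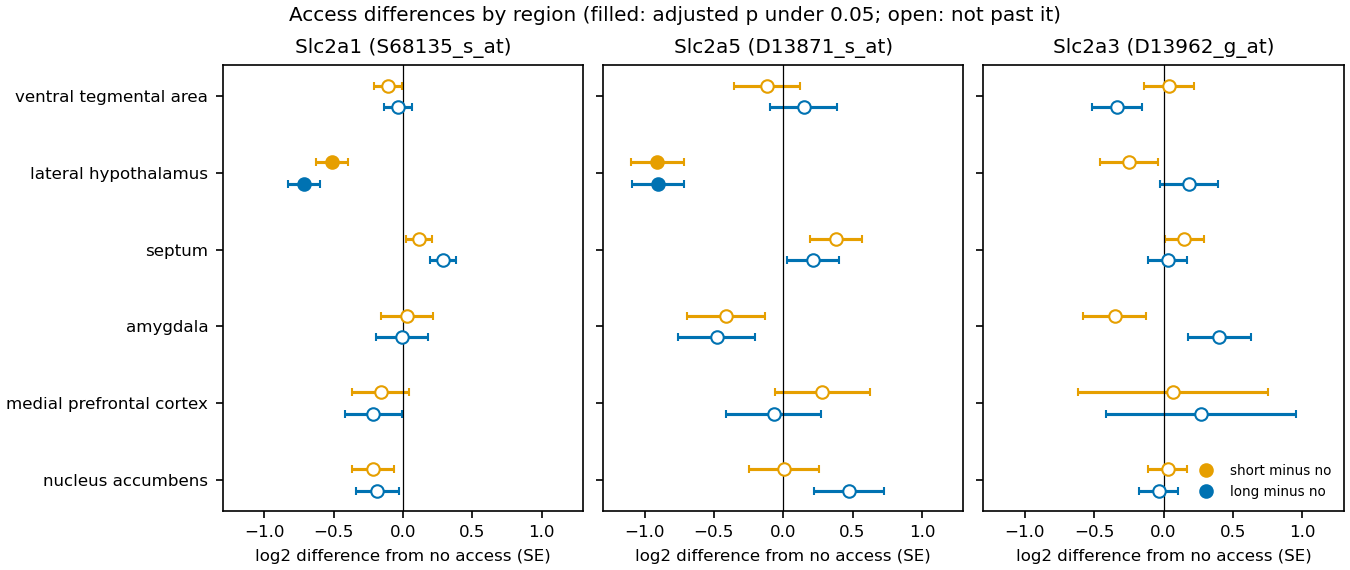
Log2 differences of short (orange) and long (blue) from no access with their SE, for 3 transporter probe sets in each region; filled points have an adjusted p under 0.05. The filled points are the 4 of Slc2a1 and Slc2a5 in the lateral hypothalamus, between -0.51 and -0.91, and no Slc2a3 point is filled.

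In the amygdala the 2 Slc2a3 probe sets were both highest with long access, without passing the adjusted test. D13962_g_at read 9.05, 9.14, 8.61 and 8.82 without access, 9.03, 8.85, 8.32 and 8.01 with short access and 9.62, 9.40, 8.98 and 9.22 with long access. Long and short access overlapped by 1 array on each side, at a difference of 0.75 ± 0.23 (unadjusted p = 0.0053, limma adjusted p = 0.93). D13962_at read 6.80, 5.24, 6.24 and 7.15 without access, 7.10, 7.38, 7.41 and 6.21 with short and 7.52, 7.30, 7.12 and 6.98 with long access. Its difference was 0.87 ± 0.39 for long against no access (unadjusted p = 0.041, limma adjusted p = 0.75) and 0.67 ± 0.39 for short against no access, where D13962_g_at differed by -0.35 ± 0.23. The probe sets of the same gene thus had opposite signs at short access. The 3′ to 5′ GAPDH signal of these arrays was 0.60 ± 0.23 without, 0.43 ± 0.08 with short and 0.28 ± 0.12 with long access (SD, n = 4 each), a difference of -0.32 between long and no access (exact permutation test, two-sided, p = 0.057, and 0.30 adjusted over 72 comparisons). The summed signal of Oxt, Avp and Gal, the hypothalamic markers, was 411 to 4260.5 without and 673 to 10497 with short access. With long access it was 4201.5 to 5626. For 3 choroid plexus genes the sum was 3313 to 5984 without and 1722 to 2028 with long access, with no overlap. With short access it was 2081.5 to 3842. The part of these measures in the Slc2a3 signal was not tested. The dim Slc2a5 probe set D28562_s_at was at the floor on 40 of 63 arrays. Its highest values were in the amygdala with long access, at 6.08, 6.64, 5.96 and 5, where all 4 no access arrays were at the floor, and it was under the filter and not tested.

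By region Slc2a3 had a flatter profile than Slc2a1. D13962_g_at was at a mean of 8.95 in nucleus accumbens, at 8.92 in amygdala, 8.70 in the medial prefrontal cortex, 8.62 in the ventral tegmental area, 8.51 in the septum and 8.43 in the lateral hypothalamus. Only the nucleus accumbens was called against the mean of the other regions, higher by 0.32 ± 0.14 (limma adjusted p = 0.042), and no neighbours in this order differed beyond their spread. That call was lost in 12 of 63 fits that left out 1 array, with a limma adjusted p of up to 0.081. The arrays were no access replicates 2, 3 and 4, short access replicates 1, 3 and 4 and long access replicates 3 and 4 of the nucleus accumbens, short access replicate 2 of the septum, short and long access replicate 1 of the ventral tegmental area, and long access replicate 3 of the medial prefrontal cortex. D13962_at was highest in the nucleus accumbens (6.93), amygdala (6.87) and ventral tegmental area (6.86) and lowest in the septum (6.28). It was under the filter in the septum, medial prefrontal cortex and lateral hypothalamus and entered the fit of all regions through the 3 where it was high, so its region differences are given as levels only.

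The order for D13962_g_at rested on 3 arrays of the medial prefrontal cortex. Replicates 1 and 2 of every access group there lay between 9.02 and 9.52, and replicate 3 read 7.31 without, 7.35 with short and 8.03 with long access. The 3 arrays thus stood apart from the other 6 in the same way whatever the access. Slc2a1 was slightly higher in them (10.46 to 10.94 against 10.25 to 10.38), Slc2a5 overlapped (6.84 to 7.83 against 6.57 to 7.53), and D13962_at overlapped (5 to 6.37 against 5.51 to 7.38). Of 858 probe sets, 16.4% lay below and 16.2% above in all 3. Of the 3 cortical markers Cck overlapped (12.60 to 12.75 against 12.50 to 12.80), Stx1a overlapped (11.00 to 11.29 against 11.10 to 11.62) and Itpka lay above (10.71 to 10.86 against 10.14 to 10.67). Penk and Drd1, markers of the nucleus accumbens, also lay above (9.15 to 9.23 against 8.40 to 8.98, and 7.69 to 8.13 against 6.91 to 7.53). The neuronal Syn1 lay below (11.07 to 11.28 against 11.81 to 12.39), as did the astrocytic glutamate carrier Slc1a2 (6.38 to 6.72 against 7.13 to 7.49). Adora2a, Drd2, Snap25, Mbp and Mog overlapped. Beside the actin ratio given above, the 3′ to 5′ GAPDH signal was 0.76 to 1.47 in these arrays against -0.01 to 0.42, and the part of these markers and ratios in the Slc2a3 signal was not tested.

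Without these 3 arrays the medial prefrontal cortex was the region with the highest D13962_g_at signal. It was then higher than the mean of the other regions by 0.57 ± 0.12 (limma adjusted p = 2.51e-05) and higher than the nucleus accumbens by 0.31 ± 0.13 (limma adjusted p = 0.049). No access contrast of Slc2a3 in this region was called with or without them, and the difference of D13962_g_at between long and no access went from 0.27 ± 0.68 to 0.05 ± 0.21. D13962_at had a mean of 6.68 in replicates 1 and 2 of this region, against 5.68 in replicate 3. It was under the filter in this region over all 9 arrays, so only its levels are given.

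**Figure D4:**
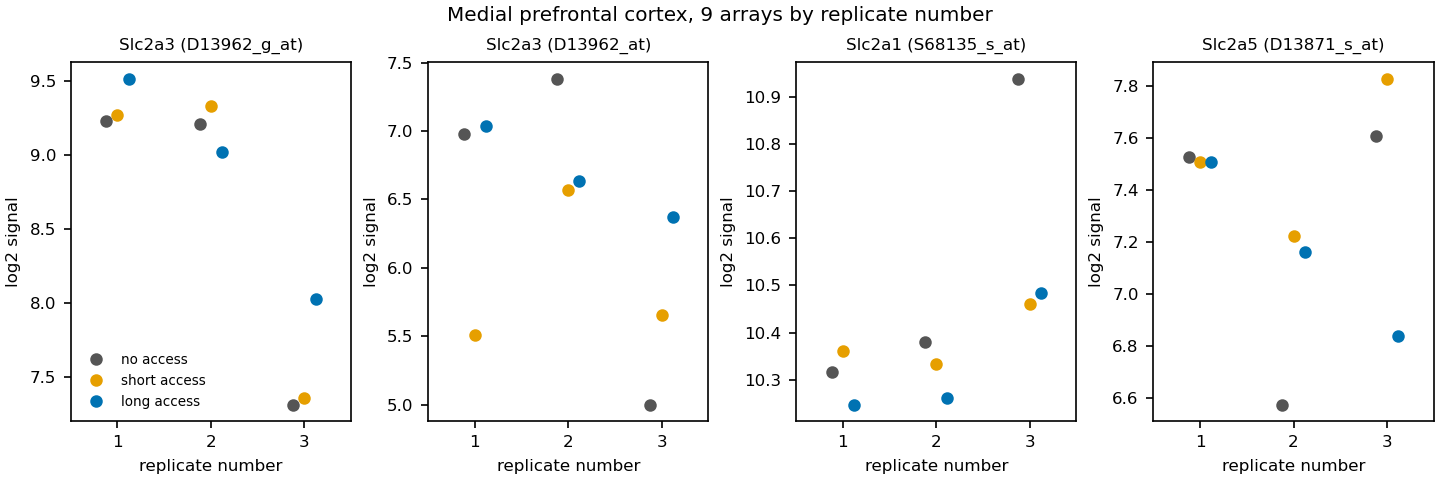
Log2 signal of 4 transporter probe sets in the 9 medial prefrontal cortex arrays by replicate number, coloured by daily cocaine access. Replicate 3 lies at 7.31 to 8.03 for D13962_g_at against 9.02 to 9.52 in replicates 1 and 2, and at 10.46 to 10.94 against 10.25 to 10.38 for Slc2a1.

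Slc2a5 was ordered by region with D13871_s_at. Means were 7.99 in the ventral tegmental area, 7.74 in the amygdala, 7.70 in the lateral hypothalamus, 7.64 in the septum, 7.31 in the medial prefrontal cortex and 7.13 in the nucleus accumbens. No 2 neighbours differed beyond their spread, but the ends did, with the nucleus accumbens -0.87 ± 0.16 from the ventral tegmental area (limma adjusted p = 3.05e-06, 72.1% of probe sets called). Against the mean of the other regions the ventral tegmental area was higher by 0.49 ± 0.13 (limma adjusted p = 0.0008), and the nucleus accumbens and medial prefrontal cortex were lower (-0.55 ± 0.11 and -0.33 ± 0.13, limma adjusted p = 3.79e-05 and 0.020). Without the array of no access replicate 2, short access replicate 2 or long access replicate 3 of the medial prefrontal cortex, the call there was lost (limma adjusted p = 0.13, 0.066 and 0.072). The 4 microglial and immune genes tested matched this order only in part. At its ends, 4 of 4 were called higher in the ventral tegmental area, and 4 of 4 lower in the medial prefrontal cortex and 3 of 4 in the nucleus accumbens. In the septum 3 of 4 and in the lateral hypothalamus 2 of 4 were called higher, and in the amygdala 2 of 4 lower, where Slc2a5 was not called in any of these 3 regions. Of all 858 probe sets, 68.5% were called in either direction in the ventral tegmental area. The share was 67.2% in the medial prefrontal cortex and 65.9% in the nucleus accumbens. It was 50.9% in the septum, 55.5% in the lateral hypothalamus and 50.1% in the amygdala. In the lateral hypothalamus the place of Slc2a5 turned with access. It was above the mean of the other regions by 0.77 in the no access arrays (limma adjusted p = 0.0084) and at -0.18 from it in the cocaine arrays (limma adjusted p = 0.26).

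The genes most like each transporter were listed by Pearson correlation over the 18 group means, which share their arrays and scaling and are mostly region differences. For Slc2a1 they were Cntf, a neurotrophic factor of glia (r = 0.97), Scn7a, a sodium channel (0.96), S100b, a calcium-binding protein of astrocytes (0.96), Sod1, superoxide dismutase (0.95), and Sncg, gamma-synuclein (0.95). Scn7a passed the filter only in the ventral tegmental area (7.25). In the septum, amygdala, medial prefrontal cortex and nucleus accumbens it lay at 5.00 to 5.48, and Cntf at 5.85 to 6.56, under the filter. Sncg lay at 5.07 to 5.70 in the last 3 of these regions. The r of these genes thus rests largely on the ventral tegmental area and lateral hypothalamus. For Slc2a5 they were Pdgfra, the growth factor receptor of oligodendrocyte precursors (r = 0.84), Il6r, an interleukin receptor (0.81), Hsd17b10 (0.79), Cd48 (0.78) and Nfkb1 (0.77). For D13962_g_at of Slc2a3 they were the neuronal potassium channel Kcnq3 (r = 0.78), Bdkrb1 (0.72), the GABA receptor subunit Gabra4 (0.71), Map2k1 (0.70) and Plcb1 (0.70). For D13962_at they were lower, led by the sodium channel Scn3a (0.64) and Pkia (0.62), with Drd2 (0.58), Htr6 (0.58) and Sv2c (0.56). Htr6 passed the filter only in the nucleus accumbens (7.37). By rank correlation 3 of the 5 genes were shared for Slc2a1 and for Slc2a5, and 2 for each Slc2a3 probe set.

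Among the transporters, Slc2a1 and Slc2a5 had r = 0.72 over the 18 group means, and Slc2a1 and D13962_g_at had -0.48. Over the 63 arrays, with group means taken out, Slc2a1 and Slc2a5 had r = 0.19. The 2 Slc2a3 probe sets had r = 0.50 over group means and 0.37 over the 63 arrays with group means taken out, and the last went to -0.01 without the 9 arrays of the medial prefrontal cortex. Within groups D13962_g_at was most like Hpcal4, Calm3 and Gja1 (r = 0.85, 0.84 and 0.83), and these went to 0.63, 0.47 and 0.43 without the medial prefrontal cortex. For D13962_at the 3 most like genes within groups were Gfra2, Ncan and Grin1 (0.56, 0.55 and 0.53). For Slc2a1 they were Dynll1, Smad2 and Cx3cl1 (0.59, 0.56 and 0.54), and for Slc2a5 Stx8, Map2k2 and Synj1 (0.62, 0.50 and 0.45).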

How the data were processed

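The authors deposited a linear signal intensity for every probe set, and the submitters' processing notes name MAS5. Its version, scaling target and detection calls are not given in the sources used here. Biotinylated cRNA was made from total RNA, per the labels' protocols. The deposited 2% trimmed mean lay between 250.8 and 251.3 on all arrays. The array has no counts, and its precision is limited by the number of arrays.

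The 2% trimmed mean of the 1263 probe sets other than controls was set to 500 on every array, signals below 32 were raised to 32, and values were put on a log2 scale. Tests covered probe sets with a mean signal of at least 100 in the region, or in at least 1 region for fits of all regions (858 probe sets). Differences of low signals are understated on this scale. limma 3.58.1 in R 4.3.3 (lmFit, eBayes with an intensity trend) fitted the 3 access groups in each region, and 1 fit of 63 arrays in 18 groups gave the region comparisons, the mean over 6 regions and the differences between regions. The fits were tested on simulated data. Array measures were compared by exact permutation tests.

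Probe sets were named from the platform annotation, where 1137 had 1 symbol, 8 several and 118 none. The suffixes _s and _g mark probe sets that can match more than 1 transcript, and 4 of the 5 members have 1. The genes named beside the members were the 5 with the highest correlation over group means, the 3 with the highest within groups, and called genes of the lists, 1 probe set per gene. The members and lists were chosen with earlier results of these data known. Alternatives are given in the closing section.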

Additional observations from a re-analysis of the deposited data

Results flagged for a closer look

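Of the results on these transporters, 3 were marked because the effect of access differed between regions by a test of the difference itself. In the lateral hypothalamus against the mean of the other 5 regions, the change with long against no access differed by -0.68 ± 0.17 for Slc2a1 (S68135_s_at, limma adjusted p = 0.0047) and by -0.96 ± 0.28 for Slc2a5 (D13871_s_at, limma adjusted p = 0.017), and the change with short against no access by -0.93 ± 0.28 for Slc2a5 (limma adjusted p = 0.032). All 3 rest on 4 lateral hypothalamus arrays with no access, whose antisense controls were at 8.13 against 6.84 and 6.75 in the cocaine groups, and the part of this was not tested. No array of the 36 groups of 4 was an outlier by Dixon's test for the 4 brighter probe sets. Groups of 3 were not tested.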

How the results depend on the processing

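Within the lateral hypothalamus the 4 called differences of Slc2a1 and Slc2a5 kept their direction under every alternative that gave a value, and kept their call under all but the spike-in covariate. With that covariate Slc2a1 short against no access was -0.59, Slc2a5 was -0.75 (long) and -0.81 (short), and Slc2a3 D13962_g_at long against no access turned to -0.63 (limma adjusted p = 0.29). No call was lost when 1 array was left out, with Slc2a1 between -0.81 and -0.66 (long) and -0.57 and -0.44 (short), and Slc2a5 between -0.99 and -0.77 and between -1.01 and -0.77. Slc2a5 long against short access turned to -0.12 with quantile normalization and -0.000559 with array weights, and lay between -0.13 and 0.14 with 1 array left out. For D13962_at in the amygdala the same contrast lay between -0.070 and 0.33.

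For the lateral hypothalamus against other regions, Slc2a5 short against no access was -0.82 with quantile normalization (limma adjusted p = 0.11). Slc2a1 short against no access was called with array weights (-0.46), with the replicate block (-0.44, limma adjusted p = 0.039) and without the 3 replicate 3 arrays of the medial prefrontal cortex (-0.47). With 1 array left out these lay between -1.04 and -0.80 for Slc2a5 (short), -1.05 and -0.83 for Slc2a5 (long) and -0.50 and -0.37 for Slc2a1 (short).

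Region comparisons moved more. For Slc2a3 D13962_g_at the lateral hypothalamus was called lower as deposited (-0.33), with a filter at 200 (-0.31), array weights (-0.41), the replicate block (-0.31) and without the 3 replicate 3 arrays (-0.42). The septum was called lower with array weights (-0.31), the block (-0.21) and without those arrays (-0.33), and the amygdala higher with the block (0.28). The medial prefrontal cortex was called higher with array weights (0.42) and without those arrays (0.57), and was at -0.11 in no access arrays only. The nucleus accumbens lost its call with quantile normalization (0.25), no filter (0.32), no access arrays only (0.33) and without no access arrays (0.31). The ventral tegmental area turned to 0.031 with quantile normalization and 0.051 in no access arrays only. With 1 array left out the amygdala lay between 0.23 and 0.34, the lateral hypothalamus -0.37 and -0.26, the medial prefrontal cortex -0.11 and 0.22, and the nucleus accumbens 0.27 and 0.36.

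For Slc2a5 the lateral hypothalamus was at 0.77 in no access arrays only, -0.18 without no access arrays and -0.17 without its own. The medial prefrontal cortex lost its call with quantile normalization (-0.20), no access arrays only (-0.51), without no access arrays (-0.24) and without those of the lateral hypothalamus (-0.27), and lay between -0.39 and -0.22 with 1 array left out. In no access arrays only the septum turned to -0.26, the ventral tegmental area lost its call (0.38), and Slc2a1 in the septum was called lower (-0.41). The cause of these changes was not tested.

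Probe sets called in the lateral hypothalamus went from 213 (long against no access) to 124 without cross-hybridising probe sets, 116 with all arrays in 1 fit, 120 adjusted over 18 contrasts and 62 with the spike-in covariate. For short against no access 161 went to 87, 75, 87 and 68, and for long against short 64 went to 15 in 1 fit, 38 over 18 contrasts and 103 with the replicate block. No region met the rule for pairing by replicate number (every same-number correlation above 0.1), with a lowest correlation between -0.18 and 0.06. The medial prefrontal cortex came nearest, at 0.62 to 0.79 for replicate 3, 0.41 to 0.58 for replicate 1 and -0.0014 to 0.58 for replicate 2 (median 0.58, against -0.47 for different numbers). Among the transporter contrasts compared across alternatives, the block changed no other call. Access contrasts within the nucleus accumbens, medial prefrontal cortex and ventral tegmental area were not compared in this way. Without cross-hybridising probe sets only D13962_at is left, so the other members gave no value there. A filter at 200 kept D13871_s_at in the lateral hypothalamus, at a mean signal of 207.71. As deposited, on a lower scale, D13871_s_at was under the filter of 100 in that region and gave no value. D13962_at was under that filter there already in the main fit.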
